A study of Mus musculus with 21 samples.

Results

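The nuclear regulators of cardiac energy metabolism described here are 10 genes listed by name: the receptors Ppara, Ppard, Pparg, Esrra and Esrrg, the coactivators Ppargc1a and Ppargc1b, the corepressor Nrip1, and the factors Nrf1 and Tfam. Each was found by its symbol under 1 identifier among the 46517 Ensembl genes of the deposited counts table, so 10 of 10 were measured. All 10 passed the filter on low counts and were among the 14324 genes tested. Heart tissue from 4 control (Notch3+/+) and 3 Notch3-/- mice, all C57BL/6J and 10 to 14 months old, was used for bulk RNA-sequencing. The Notch3-/- mice carry lacZ placed by targeting within Notch3, and the sex of the sequenced mice is not given. Each mouse, the replicate, gave 3 technical libraries of polyadenylated RNA, and their counts were added up. Control mice 1 to 4 had 3091461, 4638786, 4208205 and 3046326 counts, and Notch3-/- mice 1 to 3 had 3828763, 5167869 and 5086740. Single libraries ranged from 464390 to 2134368 counts (n = 12, control) and from 979804 to 2427783 counts (n = 9, Notch3-/-).

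Heart muscle draws most of its energy from fatty acids, which its mitochondria oxidise. The PPAR receptors bind DNA together with RXR partners and, when occupied by fatty acid ligands, switch on genes for fatty acid uptake and oxidation, while the ERR receptors act on genes of the respiratory chain and the tricarboxylic acid cycle without a known natural ligand. PGC-1 coactivators dock on both receptor families and on NRF1, the Nrip1 product RIP140 opposes them as a corepressor, and NRF1 together with GABP drives nuclear genes for mitochondria, among them Tfam, whose product packages and transcribes the mitochondrial genome.

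Promoter windows from RefSeq (GRCm38.p6), from 250 bases before to 50 after a gene's start, were matched for 9 of the 10 members. They are shown for the members in whose windows a core motif of NRF1 or GABP was found, since these factors belong to the same network as the genes they precede. Both strands of 16 member windows were searched for GCGCATGC, the core of the NRF1 motif, for CCGGAAGT, the core of the GABP motif, and for TCAAGGTCA, the ERR half-site. GCGCATGC was present in 2.71% of all 32851 windows, and among the members in windows of Ppara and Esrra. CCGGAAGT was present in 3.89% of all windows, and among the members in that of Tfam. TCAAGGTCA was present in 0.423% of all windows and in no member window. The stretches below run 5′ to 3′ on the strand of the gene, from 80 bases before to 20 after the start, with the motif in capitals. That of Ppara lies on the plus strand at chr15:85735696-85735795, that of Esrra on the minus strand at chr19:6921789-6921888 and that of Tfam on the minus strand at chr10:71238025-71238124.
Ppara: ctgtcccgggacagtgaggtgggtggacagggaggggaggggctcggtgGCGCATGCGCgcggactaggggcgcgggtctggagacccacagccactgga
Esrra: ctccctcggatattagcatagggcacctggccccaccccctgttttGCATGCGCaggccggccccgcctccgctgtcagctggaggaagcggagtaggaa
Tfam: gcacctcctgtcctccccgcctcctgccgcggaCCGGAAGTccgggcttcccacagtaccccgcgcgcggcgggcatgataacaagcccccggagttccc
The capitals of Ppara hold 2 overlapping matches, 1 on each strand, and begin 31 bases before the start. Those of Esrra begin 34 bases and those of Tfam 47 bases before it. A match of letters was not taken as a bound site, and no binding was measured.

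The labels and the tissue were checked before the members were read. For Notch3, control mice 1 to 4 had 174, 200, 245 and 185 counts while Notch3-/- mice 1 to 3 had 22, 36 and 25, so its counts separated the genotypes as labelled (log2 fold change -3.16, SE 0.23, edgeR FDR 0.00173). All 10 cardiomyocyte markers were detected in every mouse. Their summed level in CPM (counts scaled to the TMM-adjusted total of each mouse) for control mice 1 to 4 was 31620, 22970, 26580 and 30290, and for Notch3-/- mice 1 to 3 it was 31210, 20730 and 22350. The most abundant of them was Ttn, which encodes titin, with 12360 ± 1523 CPM (SD, n = 4) in control mice.

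Notch3-/- mice 1 and 2 stood apart from the other 5 mice by hepatocyte markers. The 20 markers summed to 150.5, 272, 43.5 and 93.5 CPM in control mice 1 to 4 and to 7527, 15160 and 206.5 CPM in Notch3-/- mice 1 to 3. Alb, the gene for serum albumin and the most abundant of the list, had 22.4, 81.1, 2.35 and 10.7 CPM in control mice and 1705, 1875 and 66.9 CPM in Notch3-/- mice. Of the defining markers, Fgb, Tat, Hnf4a and G6pc were at 0 in control mouse 1, Hnf4a, G6pc, Pck1 and Serpina3k in control mouse 3, and Apob, Fgg, Tat, Cps1, Hnf4a and G6pc in control mouse 4. None was at 0 in control mouse 2 or in the Notch3-/- mice. Of the 18 hepatocyte markers tested, 18 had an unadjusted p lower than 0.05 with higher levels in Notch3-/- mice, and 0 were called, with a median log2 fold change of 7.10, 9.01 within the k-labelled mice, where 20 passed the filter, and 1.09 without Notch3-/- mice 1 and 2. Fold changes of the members and medians of the lists are therefore also given without Notch3-/- mice 1 and 2, a comparison of 4 control mice with 1 mouse that is assumed to vary like the others. The sample labels begin with X for control mice 1 and 2 but with k for the remaining 5 mice, and these fold changes and medians are also given within the k-labelled mice. Both X-labelled mice are controls, so genotypes cannot be compared among them.

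A gene was called where the quasi-likelihood test of edgeR gave an FDR (Benjamini-Hochberg) lower than 0.05 together with a fold change of 1.5 or more. Of the 10 members 0 were called, beside 1 of 14324 genes tested (0.00698%), which was Notch3. With an unadjusted p lower than 0.05, 0 members were higher and 0 lower in Notch3-/- hearts, where 7.34% of all genes tested were higher and 3.05% lower. The Notch3-/- mice lay above every control mouse for 0 members (4.57% of all genes tested) and below every control mouse for 0 members (3.96%). DESeq2 and limma-voom also called 0 members, beside 601 of 28790 and 54 of 14324 genes. The counts at an unadjusted p lower than 0.05 depended on single mice: Nrip1 was lower without control mouse 2 and in the k-labelled mice, Ppard lower without Notch3-/- mouse 1 and without Notch3-/- mice 1 and 2, Ppara higher without Notch3-/- mouse 3 and Tfam higher without Notch3-/- mouse 2, each with an edgeR FDR of at least 0.262. The fitted log2 fold change, Notch3-/- over control, was above 0 for 4 members and below 0 for 6, with a median of -0.11 over the members and -0.0028 over all genes tested. These medians were -0.013 and 0.013 within the k-labelled mice, and -0.034 and -0.022 without Notch3-/- mice 1 and 2.

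**Figure D1:**
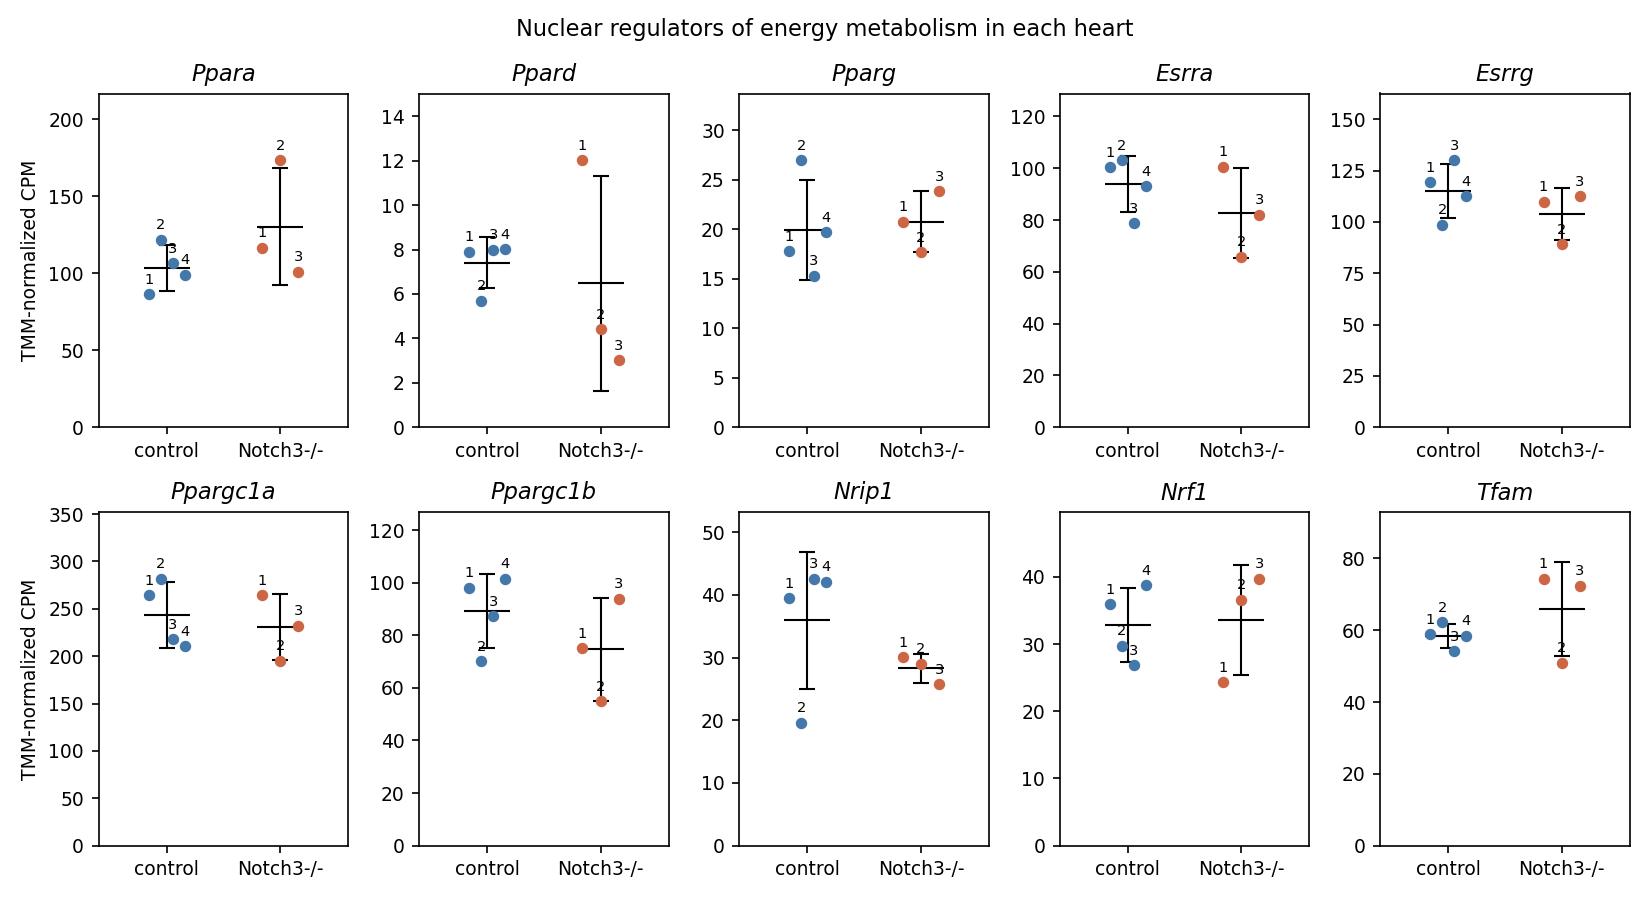
TMM-normalized CPM of each regulator (vertical axes, from 0) in the 4 control mice (blue) and 3 Notch3-/- mice (orange), 1 point per mouse with its number; the horizontal line is the group mean and the bar its SD. The groups overlapped for all 10 genes, and Notch3-/- mouse 2 had the highest Ppara level, 173 CPM, and the lowest Ppargc1b level, 54.9 CPM.

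The members covered a wide range of levels. Per kilobase of annotated exon, Ppargc1a was the most abundant in control mice with 36.9 ± 5.28 CPM (SD, n = 4), followed by Ppara with 26.9 ± 3.85, Ppargc1b with 22.4 ± 3.54, Esrra with 21.4 ± 2.48 and Esrrg with 18.6 ± 2.12 CPM per kilobase. Tfam had 13.2 ± 0.747, Pparg 6.75 ± 1.70, Nrf1 3.19 ± 0.533, Nrip1 3.14 ± 0.958 and Ppard 0.985 ± 0.152 CPM per kilobase. Not every step in this order was larger than the spread between mice. The control ranges of neighbours overlapped from Ppara to Ppargc1b, from Ppargc1b to Esrra, from Esrra to Esrrg and from Nrf1 to Nrip1, and were separate at the other 5 steps. Tfam, Pparg and Ppard held ranks 6, 7 and 10 in each of the 7 mice. Ppargc1a ranked highest in 6 of 7 mice, and in Notch3-/- mouse 2 Ppara did.

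**Figure D2:**
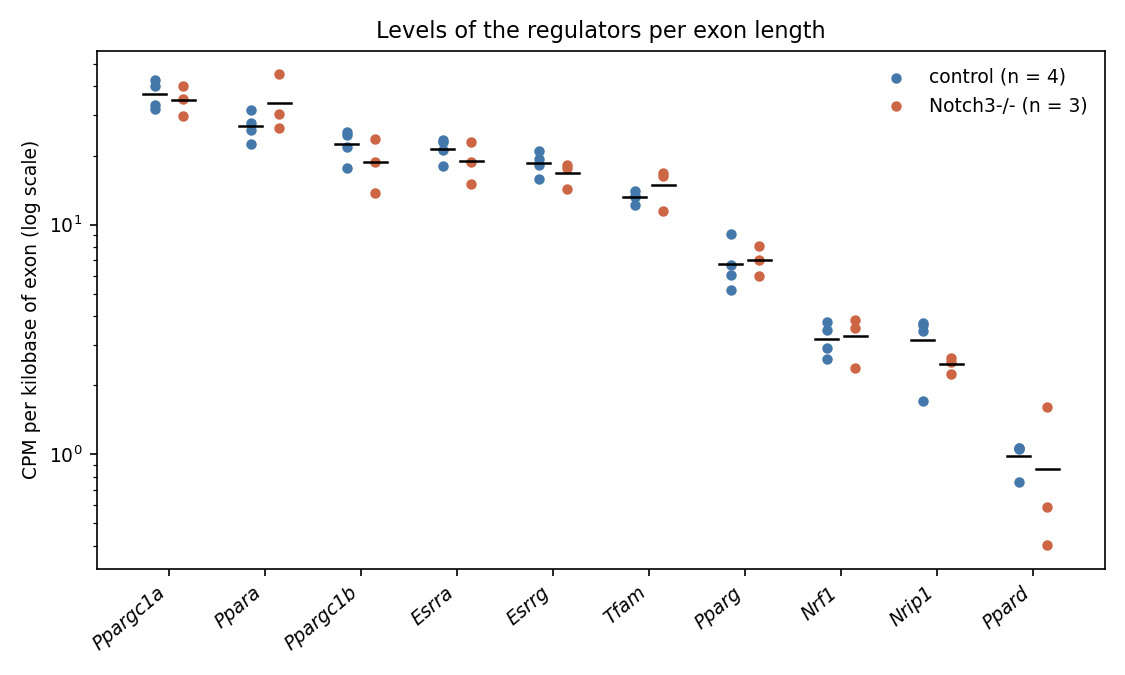
Level of each regulator per kilobase of exon (vertical axis, CPM per kilobase, log scale), in the order of the control means, with 1 point per mouse and a line at the group mean for control (blue) and Notch3-/- (orange) mice. Levels ran from 36.9 CPM per kilobase for Ppargc1a to 0.985 for Ppard in control mice.

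Of the PPAR receptors, Ppara encodes the form that drives fatty acid oxidation in heart and liver. Ppara (ENSMUSG00000022383, chr15:85734983-85802819, plus strand, GENCODE vM21 on GRCm38) had 86.3, 122, 107 and 98.9 CPM in control mice 1 to 4 and 116, 173 and 101 CPM in Notch3-/- mice 1 to 3. Notch3-/- mouse 2 lay above every control mouse, and mice 1 and 3 lay within the control range. The means were 103 ± 14.8 (SD, n = 4) and 130 ± 38.2 CPM (SD, n = 3). The log2 fold change was 0.33 (SE 0.201, 95% confidence interval -0.12 to 0.78, edgeR FDR 0.598), and 0.34 in the k-labelled mice (edgeR FDR 0.814). With each mouse left out in turn it ran from 0.07, without Notch3-/- mouse 2, which had the highest hepatocyte marker sum, to 0.48, without Notch3-/- mouse 3, and it was -0.04 without Notch3-/- mice 1 and 2. Ppara held 76.1% to 81.7% of the summed CPM per kilobase of the 3 PPAR genes among control mice, against 77.9%, 87.3% and 75.6% for Notch3-/- mice 1 to 3.

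Ppard encodes the widely expressed form of the receptor and had the fewest counts of the members. For Ppard (ENSMUSG00000002250, chr17:28232700-28301474, plus strand), control mice 1 to 4 had 24, 27, 34 and 24 counts and Notch3-/- mice 1 to 3 had 44, 21 and 16. The exact Poisson 95% intervals of these counts ran from 15.4 to 35.7 for the lowest control count, from 32.0 to 59.1 for Notch3-/- mouse 1 and from 9.14 to 25.98 for Notch3-/- mouse 3. The Notch3-/- mice lay on both sides of the control mice, with mouse 1 above all of them at 12.0 CPM and mice 2 and 3 below all of them at 4.42 and 3.03 CPM. The log2 fold change was -0.22 (SE 0.454, 95% confidence interval -1.23 to 0.80, edgeR FDR 0.909), -0.33 within the k-labelled mice, and -1.27 without Notch3-/- mice 1 and 2 (edgeR FDR 0.885). The SD of log2 CPM was 0.63 between mice and 0.73 between technical libraries of the same mouse.

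Pparg encodes the receptor best known for fat cell formation. Pparg (ENSMUSG00000000440, chr6:115360951-115490399, plus strand) had 17.8, 27.0, 15.3 and 19.7 CPM in control mice 1 to 4 and 20.8, 17.7 and 23.8 CPM in Notch3-/- mice 1 to 3. All 3 Notch3-/- mice lay within the control range. The log2 fold change was 0.05 (SE 0.238, edgeR FDR 0.961), 0.24 within the k-labelled mice and 0.25 without Notch3-/- mice 1 and 2. The 8 adipocyte markers summed to 466, 363, 372 and 365 CPM in control mice and 309, 321 and 357 CPM in Notch3-/- mice, most of it from Fabp4, a fatty acid binding protein gene that endothelial cells also express. Adiponectin (Adipoq) was at 0 in control mice 1 and 3 and Notch3-/- mouse 3, perilipin (Plin1) in 5 mice, all but control mice 2 and 4, and leptin (Lep) in 6 mice, all but control mouse 4. Cidec and Cfd were at 0 in control mouse 3 and Notch3-/- mouse 3, and Cidec had 18.9 CPM in Notch3-/- mouse 2, 2.46 CPM in Notch3-/- mouse 1 and at most 2.00 CPM in the control mice. Of these 8 markers 2 were tested, with fold changes below 0 and a median log2 fold change of -0.29, -0.14 within the k-labelled mice and -0.087 without Notch3-/- mice 1 and 2. The 3 brown adipocyte markers, of which Cidea was the most abundant in control mice with 60.2 ± 7.84 CPM (SD, n = 4), summed to 60.9, 49.5, 65.4 and 66.1 CPM in control mice and 52.2, 197 and 64.1 CPM in Notch3-/- mice, and Ucp1 was at 0 in 4 mice. In Notch3-/- mouse 2, 156 of the 197 CPM came from Elovl3, which was named after its values were seen and had at most 3 counts in every other mouse, while Cidea was at its lowest there with 40.2 CPM. This mouse also had the highest hepatocyte marker sum, 15160 CPM, and the source of its Elovl3 counts was not tested. Of the 3 brown adipocyte markers only Cidea passed the filter, with a log2 fold change of -0.21, -0.34 within the k-labelled mice and 0.082 without Notch3-/- mice 1 and 2.

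The coactivator Ppargc1a encodes PGC-1alpha, which fasting, cold and exercise induce. Ppargc1a (ENSMUSG00000029167, chr5:51454250-51567726, minus strand) had 264, 282, 218 and 210 CPM in control mice 1 to 4 and 264, 195 and 232 CPM in Notch3-/- mice 1 to 3. Notch3-/- mouse 2 was below every control mouse and the others lay among them. The means were 244 ± 34.8 (SD, n = 4) and 231 ± 34.7 CPM (SD, n = 3), with a log2 fold change of -0.08 (SE 0.151, 95% confidence interval -0.42 to 0.26, edgeR FDR 0.895). Within the k-labelled mice it was 0.10, and without Notch3-/- mice 1 and 2 it was -0.07. In fold terms the interval ran from 0.749 to 1.197, the narrowest but 1 among the members.

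Ppargc1b encodes PGC-1beta, a related coactivator of mitochondrial genes. Ppargc1b (ENSMUSG00000033871) had 98.1, 70.2, 87.3 and 101.5 CPM in control mice 1 to 4 and 75.2, 54.9 and 94.0 CPM in Notch3-/- mice 1 to 3. Again Notch3-/- mouse 2 was the lowest of the 7, and mice 1 and 3 lay within the control range. The log2 fold change was -0.26 (SE 0.204, edgeR FDR 0.705), -0.34 within the k-labelled mice and 0.08 without Notch3-/- mice 1 and 2. With each mouse left out in turn it ran from -0.46 (without Notch3-/- mouse 3) to -0.07 (without Notch3-/- mouse 2).

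Nrip1, the gene for the corepressor RIP140, had the fitted log2 fold change farthest from 0. Nrip1 (ENSMUSG00000048490, chr16:76287400-76373827, minus strand) had 39.5, 19.6, 42.6 and 42.1 CPM in control mice 1 to 4 and 30.1, 29.0 and 25.7 CPM in Notch3-/- mice 1 to 3. The Notch3-/- mice lay close together and below control mice 1, 3 and 4, but above control mouse 2, which stood far from the other control mice. Its log2 fold change was -0.34 (SE 0.261, 95% confidence interval -0.93 to 0.24, edgeR FDR 0.687), and it ran from -0.56 (without control mouse 2) to -0.26 with each mouse left out in turn. Within the k-labelled mice, which leave control mouse 2 out, it was -0.59 (edgeR FDR 0.734), and without Notch3-/- mice 1 and 2 it was -0.47. With 93 to 181 counts per mouse, the SD of log2 CPM was 0.52 between technical libraries of the same mouse and 0.42 between mice.

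The ERR receptors were close to each other in level. Esrra (ENSMUSG00000024955, chr19:6910977-6921813, minus strand), for ERRalpha, had 100.4, 103, 78.8 and 93.2 CPM in control mice 1 to 4 and 100.6, 65.8 and 82.1 CPM in Notch3-/- mice 1 to 3. Esrrg (ENSMUSG00000026610, chr1:187608791-188214885, plus strand), for ERRgamma, which heart and other oxidative tissues express at high levels, had 119, 98.6, 130.1 and 113 CPM in control mice and 109.9, 89.2 and 113 CPM in Notch3-/- mice. For both receptors Notch3-/- mouse 2 was the lowest of the 7 mice, and the other Notch3-/- mice lay within the control range. The log2 fold change of Esrra was -0.18 (SE 0.173, edgeR FDR 0.759), -0.06 within the k-labelled mice and -0.19 without Notch3-/- mice 1 and 2, and it ran from -0.34 (without Notch3-/- mouse 1) to -0.04 (without Notch3-/- mouse 2) with each mouse left out in turn. That of Esrrg was -0.15 (SE 0.148, edgeR FDR 0.774), -0.23 within the k-labelled mice and -0.03 without Notch3-/- mice 1 and 2, and it ran from -0.22 to -0.05 with each mouse left out in turn. Esrra shares 73 of its 4387 exon bases with the antisense gene Trmt112. Whether the counting used the strand is not given in the sources used here, so reads of these bases cannot be told apart. Esrra also shares 91 exon bases with the microRNA gene Mir6990 on its own strand, which had 11 counts over all 7 mice. The other 9 members share no exon base with a protein-coding neighbour.

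Nrf1 and Tfam link the nucleus to the mitochondrial genome. Nrf1 (ENSMUSG00000058440, chr6:30047988-30153458, plus strand) had 35.9, 29.7, 26.8 and 38.7 CPM in control mice 1 to 4 and 24.3, 36.6 and 39.7 CPM in Notch3-/- mice 1 to 3. Notch3-/- mouse 1 was the lowest and mouse 3 the highest of the 7, and the log2 fold change was 0.04 (SE 0.213, edgeR FDR 0.968), 0.03 within the k-labelled mice and 0.28 without Notch3-/- mice 1 and 2. Tfam (ENSMUSG00000003923, chr10:71225464-71238280, minus strand) had 58.9, 62.2, 54.1 and 58.5 CPM in control mice and 74.3, 50.9 and 72.4 CPM in Notch3-/- mice. The control mice lay within a narrow band, with Notch3-/- mice 1 and 3 above it and mouse 2 below it. For Tfam the log2 fold change was 0.17 (SE 0.161, 95% confidence interval -0.19 to 0.53, edgeR FDR 0.752), 0.22 within the k-labelled mice and 0.31 without Notch3-/- mice 1 and 2, and it ran from 0.08 to 0.33 with each mouse left out in turn.

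**Figure D3:**
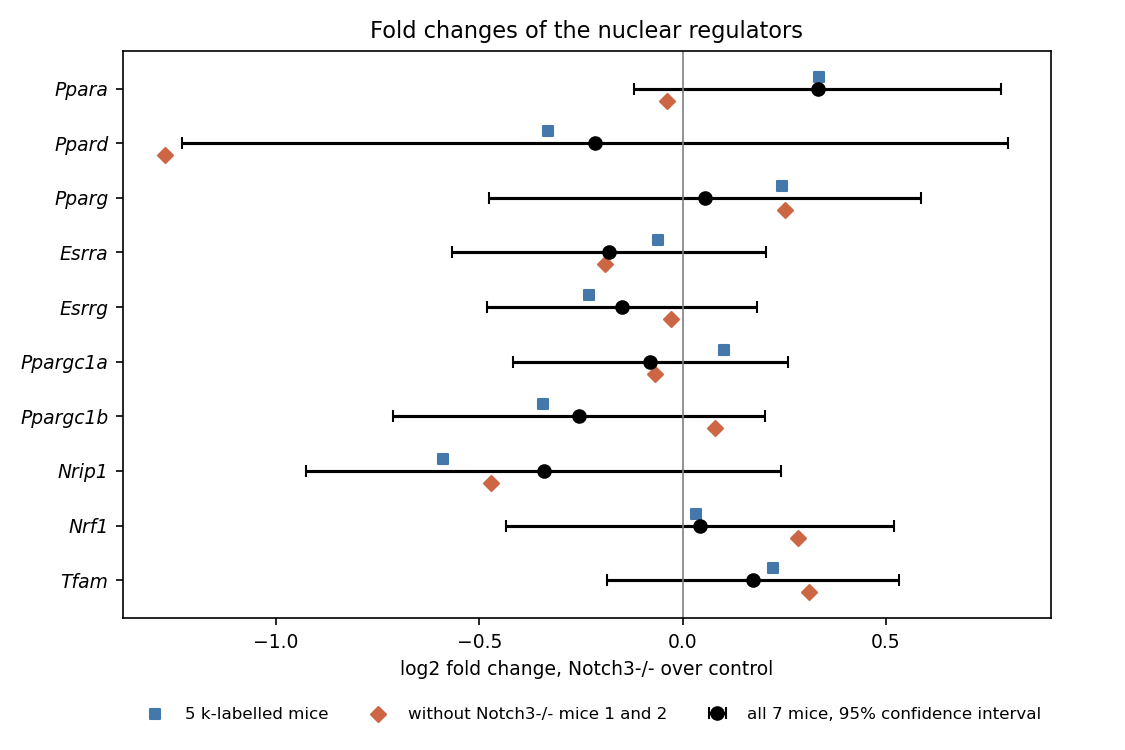
Log2 fold change of each regulator, Notch3-/- over control (horizontal axis), from all 7 mice with its 95% confidence interval (black), from the 5 k-labelled mice (blue squares) and without Notch3-/- mice 1 and 2 (orange diamonds). Every interval from all 7 mice includes 0, and Ppard without Notch3-/- mice 1 and 2, at -1.27, lies farthest from 0.

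As a description of overlap, exact permutation tests of log2 CPM over the 35 divisions of the 7 mice into 4 and 3 gave two-sided p from 0.257 for Ppara to 0.914 for Nrf1, where the smallest p possible is 0.0286. Of the 10 members, Notch3-/- mouse 2 was the lowest of the 7 mice for 5 (Ppargc1a, Ppargc1b, Esrra, Esrrg and Tfam), and control mouse 2 the highest for 3 (Pparg, Ppargc1a and Esrra). With Notch3-/- mouse 2 left out, the members had a median log2 fold change of -0.015, beside -0.0080 over all genes tested.

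Ratios between paired regulators do not depend on the scaling between mice. The log2 ratio of Ppara to Pparg counts for control mice 1 to 4 was 2.24, 2.16, 2.76 and 2.29, and for Notch3-/- mice 1 to 3 it was 2.46, 3.26 and 2.06. That of Ppargc1a to Ppargc1b for the same mice was 1.42, 2.00, 1.32 and 1.05, against 1.81, 1.82 and 1.30. Both ratios overlapped between the genotypes. The ratio of Esrra to Esrrg in the controls was -0.25, 0.06, -0.72 and -0.27, against -0.13, -0.44 and -0.46, and that of Nrip1 to Ppargc1a in the controls was -2.72, -3.82, -2.34 and -2.30, against -3.11, -2.73 and -3.16. All Notch3-/- values of these 2 ratios lay within the control range. The differences in mean log2 ratio, Notch3-/- minus control, were 0.23 for Ppara to Pparg (two-sided exact permutation p = 0.60), 0.20 for Ppargc1a to Ppargc1b (exact permutation p = 0.514), -0.05 for Esrra to Esrrg (exact permutation p = 0.886) and -0.20 for Nrip1 to Ppargc1a (exact permutation p = 0.714). The Benjamini-Hochberg adjusted exact permutation p was 0.886 for each of the 4 ratios. Within the k-labelled mice the differences were 0.07, 0.46, 0.16 and -0.68 in the same order, where the smallest exact permutation p that 10 divisions allow is 0.10. The last of these reached that p. With each mouse left out in turn, the difference of Nrip1 to Ppargc1a ran from -0.54 (without control mouse 2) to -0.04 (without control mouse 4).

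**Figure D4:**
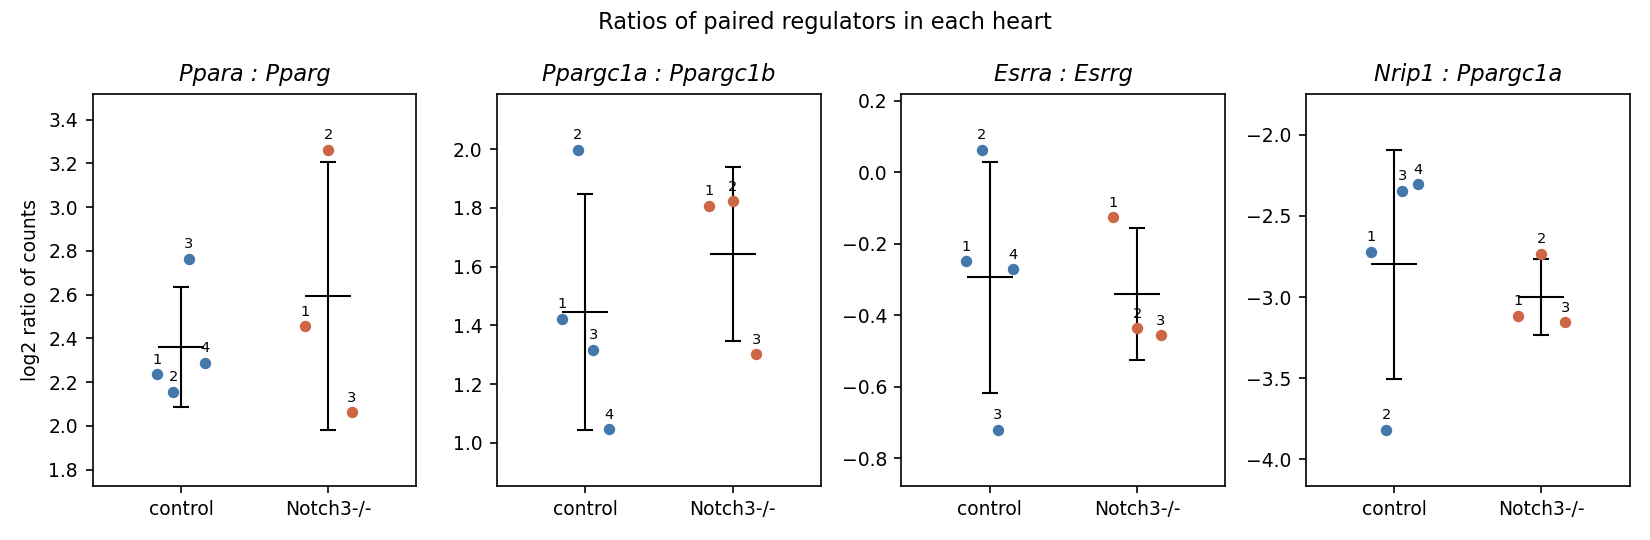
Log2 ratio of counts of 4 pairs of regulators (vertical axes) in each control (blue) and Notch3-/- (orange) mouse, with mouse numbers, the group mean (line) and its SD (bar). The groups overlapped for every pair, and control mouse 2 had the lowest ratio of Nrip1 to Ppargc1a, -3.82.

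The genes that work with the members were read as lists. Among 21 partner receptors and coregulators 21 were tested, 0 were called, 1 was higher and 1 lower at an unadjusted p lower than 0.05, and the median log2 fold change was 0.011, 0.0047 within the k-labelled mice and -0.0066 without Notch3-/- mice 1 and 2. Rxra, the DNA-binding partner of the PPAR receptors, had 75.4, 58.8, 55.3 and 69.5 CPM in control mice and 89.4, 134 and 63.7 CPM in Notch3-/- mice. As for Ppara, Notch3-/- mouse 2 was the highest, and the log2 fold change of 0.57 (SE 0.236, edgeR FDR 0.454; 0.61 within the k-labelled mice) was -0.02 without Notch3-/- mice 1 and 2. Thra, a thyroid hormone receptor gene, had 86.9, 84.7, 74.6 and 80.8 CPM in control mice and 66.4, 56.4 and 54.6 CPM in Notch3-/- mice. The groups of Thra did not overlap, and the log2 fold change was -0.47 (SE 0.135, edgeR FDR 0.253), -0.40 within the k-labelled mice and -0.58 without Notch3-/- mice 1 and 2. The most abundant gene of this list was Perm1, a muscle regulator that acts with PGC-1 and ERR, with 699 ± 56.5 CPM (SD, n = 4) in control and 651 ± 65.0 CPM (SD, n = 3) in Notch3-/- mice.

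Of 21 regulators upstream, mostly kinase subunits and transcription factors, known to act on PGC-1alpha or PPARalpha, 19 were tested, none was called or had a p lower than 0.05 before adjustment, with a median log2 fold change of -0.07. Prkaa2, the gene for a catalytic subunit of the energy sensor AMPK, was the most abundant of these with 272 ± 21.1 CPM (SD, n = 4) in control and 258 ± 20.3 CPM (SD, n = 3) in Notch3-/- mice. Of 21 nuclear genes, those of GABP and of proteins that copy, transcribe or translate the mitochondrial genome or bind its RNAs, 20 were tested, and again none was called or had a p lower than 0.05 before adjustment. Their median log2 fold change was 0.0041, and the most abundant, the mitochondrial elongation factor gene Gfm1, had 311 ± 21.9 (SD, n = 4) and 314 ± 38.6 CPM (SD, n = 3). Within the k-labelled mice the medians of these 2 lists were -0.08 and 0.05, and without Notch3-/- mice 1 and 2 they were -0.05 and 0.17. With each mouse left out in turn, the first median ran from -0.16 (without Notch3-/- mouse 3) to -0.02 (without Notch3-/- mouse 1). The second ran from -0.08 (without Notch3-/- mouse 3) to 0.07 (without Notch3-/- mouse 2).

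Of 25 PPAR target genes of heart muscle, 23 were tested and 0 were called. With an unadjusted p lower than 0.05, 2 were higher and 7 lower, and 19 of the 23 fold changes were below 0, with a median log2 fold change of -0.26 beside -0.0028 over all genes tested. The median was -0.18 within the k-labelled mice, where 25 of these genes passed the filter, and -0.14 without Notch3-/- mice 1 and 2.

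The lower PPAR targets with the lowest p encode enzymes of mitochondrial fatty acid oxidation. Acadm, for the medium-chain acyl-CoA dehydrogenase, had 1166, 1001, 1011 and 1091 CPM in control mice and 923, 774 and 900.3 CPM in Notch3-/- mice, with a log2 fold change of -0.30 (SE 0.103, edgeR FDR 0.349). Acadl, for the long-chain enzyme, had 1021, 860, 880 and 929 CPM in control mice and 811, 612 and 774 CPM in Notch3-/- mice, with a log2 fold change of -0.33 (SE 0.121, edgeR FDR 0.373). For both genes, and for Hadhb (log2 fold change -0.28, SE 0.105, edgeR FDR 0.396), the 3 Notch3-/- mice lay below the 4 control mice. This held for 5 of the 23 PPAR targets tested, beside 3.96% of all genes tested. The Notch3-/- mice lay above every control mouse for 0 of these 23 targets, beside 4.57% of all genes tested. Ech1 had a log2 fold change of -0.36 (SE 0.136, edgeR FDR 0.405), and its groups overlapped. Lpl, for the lipase that frees fatty acids from lipoproteins, was the most abundant of the list with 2094 ± 182 CPM (SD, n = 4) in control and 1746 ± 224 CPM (SD, n = 3) in Notch3-/- mice. Within the k-labelled mice the log2 fold changes of Acadm, Acadl, Hadhb, Ech1 and Lpl were -0.29, -0.31, -0.27, -0.32 and -0.28, and without Notch3-/- mice 1 and 2 they were -0.24, -0.25, -0.30, -0.41 and -0.34.

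Of 22 ERR and PGC-1 target genes of the respiratory chain, the tricarboxylic acid cycle and energy transfer, 22 were tested and 0 were called. With an unadjusted p lower than 0.05, 0 were higher and 2 lower, and all 22 fold changes were below 0 with a median log2 fold change of -0.26, -0.24 within the k-labelled mice and -0.35 without Notch3-/- mice 1 and 2. Their summed level was 25200, 19550, 20450 and 23600 CPM in control mice 1 to 4 and 21750, 16680 and 17890 CPM in Notch3-/- mice 1 to 3. The highest sums were in control mice 1 and 4, the mice with the fewest counts in all, and the groups overlapped. Uqcrc2, for a core subunit of respiratory complex III, had 741 ± 37.7 (SD, n = 4) and 615 ± 57.9 CPM (SD, n = 3), with a log2 fold change of -0.27 (SE 0.101, edgeR FDR 0.40, -0.25 within the k-labelled mice and -0.21 without Notch3-/- mice 1 and 2). Mdh2, for mitochondrial malate dehydrogenase, had a log2 fold change of -0.33 (SE 0.145, edgeR FDR 0.479, -0.34 within the k-labelled mice and -0.38 without Notch3-/- mice 1 and 2). The most abundant gene of this list, Ogdh, for a subunit of the oxoglutarate dehydrogenase complex, had 2574 ± 333 CPM (SD, n = 4) in control and 2126 ± 333 CPM (SD, n = 3) in Notch3-/- mice.

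The mitochondrial genome, on which Tfam acts, was read through its 13 protein-coding genes. Of all counts they took 1.00%, 0.705%, 0.802% and 0.957% for control mice 1 to 4, and 0.79%, 0.599% and 0.652% for Notch3-/- mice 1 to 3. The groups overlapped, with Notch3-/- mice 2 and 3 below every control mouse and mouse 1 among them. The mean share was 0.866% ± 0.137 (SD, n = 4) in control and 0.68% ± 0.0987 (SD, n = 3) in Notch3-/- mice, a difference of -0.186 percentage points (two-sided exact permutation p = 0.114), and -0.199 percentage points within the k-labelled mice (exact permutation p = 0.20, where the smallest possible is 0.10). Of the 13 genes 12 were tested, 0 were called, 2 were lower at an unadjusted p lower than 0.05 and 0 higher, and all 12 fold changes were below 0 with a median log2 fold change of -0.31, -0.33 within the k-labelled mice and -0.47 without Notch3-/- mice 1 and 2. Their summed counts differed little between mice, from 29138 to 33768, while the totals of the mice ran from 3046326 to 5167869 counts. Over the libraries of the same mouse, the log2 share changed by -0.77 (SE 0.0336) per log2 unit of depth, and was lower in deeper libraries.

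The 2 lower genes were mt-Nd6 and mt-Nd3, for subunits of respiratory complex I. For mt-Nd3, the X-labelled control mice 1 and 2 had 88 and 111 counts, the k-labelled control mice 3 and 4 had 14 and 15, and Notch3-/- mice 1 to 3 had 23, 14 and 17. Its levels divided the mice by label and not by genotype, and its log2 fold change of -1.89 (SE 0.737, edgeR FDR 0.421) was -0.01 within the k-labelled mice and -2.22 without Notch3-/- mice 1 and 2. mt-Nd6 had a log2 fold change of -0.31 (SE 0.137, edgeR FDR 0.479, -0.32 within the k-labelled mice and -0.41 without Notch3-/- mice 1 and 2), and mt-Nd5, the most abundant, had 2101 ± 374 CPM (SD, n = 4) in control and 1684 ± 231 CPM (SD, n = 3) in Notch3-/- mice.

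Depth moved with the levels of these abundant genes. Over the 21 libraries, compared within each mouse, the median log2 CPM of the mitochondrially encoded genes changed by -0.84 (SE 0.0433) per log2 unit of library depth and that of the ERR and PGC-1 targets by -0.51 (SE 0.0272). The same slope was -0.16 (SE 0.0532) for the PPAR targets, -0.76 (SE 0.0484) for the cardiomyocyte markers, 0.12 (SE 0.0932) for the 10 members and 0.07 (SE 0.0105) for all genes tested. A slope below 0 means that counts rose less than depth did. The counts of the mitochondrially encoded genes came closest to levelling off as libraries grew, followed by those of the cardiomyocyte markers. Counts of the ERR and PGC-1 targets, and more so of the PPAR targets, still rose with depth, though less than it did. The mean log2 depth of the libraries was 0.36 higher in Notch3-/- than in control mice. In no library did a member exceed 0.0975 counts per exon base, whereas 6 mitochondrially encoded genes exceeded 1 in their largest library, and the highest value of any gene of at least 200 exon bases was 1.97. For the cardiomyocyte markers, 10 of 10 fold changes were below 0. Their median log2 fold change was -0.24 (-0.27 within the k-labelled mice and -0.35 without Notch3-/- mice 1 and 2), and both target lists also had medians below 0. With each mouse left out in turn, the cardiomyocyte median ran from -0.40 (without Notch3-/- mouse 1) to -0.15 (without Notch3-/- mouse 2). That of the ERR and PGC-1 targets ran from -0.40 (without Notch3-/- mouse 1) to -0.18 (without control mouse 1). That of the PPAR targets ran from -0.31 (without control mouse 3) to -0.18 (without Notch3-/- mouse 2). The PPAR target median was -0.26 without Notch3-/- mouse 1 and -0.14 without Notch3-/- mice 1 and 2, so it did not move with the cardiomyocyte median there. The part of depth, and of fewer cardiomyocytes against less RNA per cell, which cannot be told apart in bulk tissue, was not tested for these lists.

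**Figure D5:**
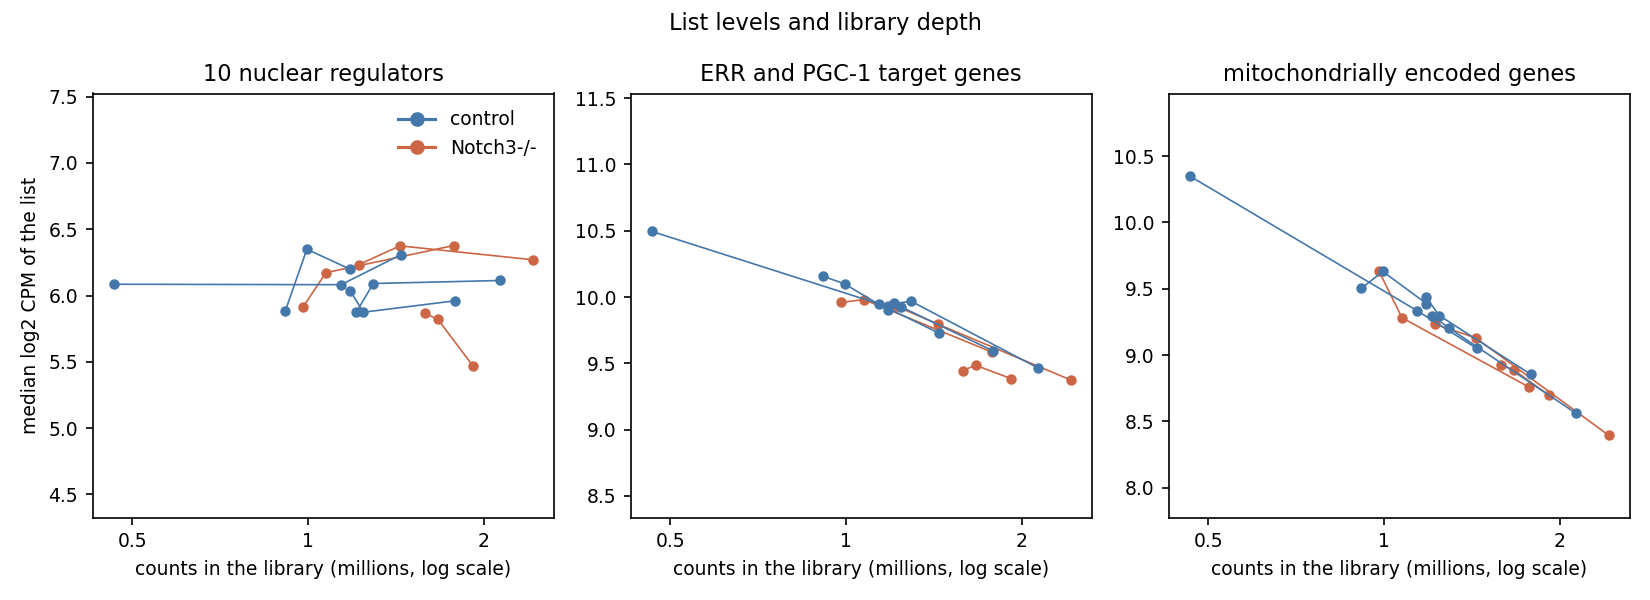
Median log2 CPM of 3 gene lists (vertical axes, each spanning the same range) against the counts in a library (horizontal axes, log scale), with the 3 technical libraries of a mouse joined by a line, for control (blue) and Notch3-/- (orange) mice. Per log2 unit of depth within mice, the slope was -0.84 for the mitochondrially encoded genes, -0.51 for the ERR and PGC-1 targets and 0.12 (SE 0.0932) for the 10 regulators.

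Markers of the other cell types of the heart were read beside the members, and 0 were called in any list. The median log2 fold change was 0.05 for 8 endothelial markers tested, led by Kdr with 211 ± 70.5 (SD, n = 4) and 284 ± 35.9 CPM (SD, n = 3), and 0.15 for 8 macrophage markers, of which 1 was higher at an unadjusted p lower than 0.05, led by Lyz2 with 191 ± 24.6 (SD, n = 4) and 191 ± 12.6 CPM (SD, n = 3). It was 0.26 for 8 fibroblast markers, of which 4 were higher and 1 lower at an unadjusted p lower than 0.05. Of their fold changes 6 were above 0 and 2 below. The most abundant, Dcn, went against the median, with 509.9 ± 52.8 (SD, n = 4) and 426 ± 29.1 CPM (SD, n = 3) and a log2 fold change of -0.26. For the mural cells in which Notch3 is known to be expressed, the median was -0.22 for 5 smooth muscle markers tested and -0.17 for 6 pericyte markers, each with 2 lower at an unadjusted p lower than 0.05, beside 0 and 1 higher. Medians among k-labelled mice alone were -0.041 for endothelial, 0.12 for macrophage, 0.47 for fibroblast, -0.23 for smooth muscle and -0.21 for pericyte markers, and without Notch3-/- mice 1 and 2 they were 0.075, 0.29, 0.31, -0.86 and -0.15 in the same order. The endothelial median changed sign within the k-labelled mice, where the log2 fold change of Kdr was 0.09 beside 0.43 over all 7 mice. With each mouse left out in turn, the medians ran from -0.031 to 0.21 for endothelial, from 0.0093 to 0.18 for macrophage, from 0.094 to 0.34 for fibroblast, from -0.73 to -0.15 for smooth muscle and from -0.28 to -0.15 for pericyte markers. The lowest macrophage and fibroblast medians were those without Notch3-/- mouse 3, and the lowest smooth muscle median that without Notch3-/- mouse 1, where 6 in place of 5 smooth muscle markers passed the filter. Of the 5 smooth muscle markers tested, 2 fold changes were above 0 and 3 below. Myh11, for smooth muscle myosin and named after its values were seen, had 39.8, 20.4, 10.6 and 19.7 CPM in control mice and 3.28, 5.05 and 3.59 CPM in Notch3-/- mice (log2 fold change -2.48, SE 0.45, edgeR FDR 0.118). Its groups did not overlap. Acta2 and Mylk, also named after their values were seen, had log2 fold changes of 0.15 and 0.24, and Acta2 had 160.0, 166.9, 83.5 and 89.2 CPM in control mice and 267, 36.0 and 114 CPM in Notch3-/- mice. Smtn, the most abundant smooth muscle marker, had 410.3 ± 51.7 (SD, n = 4) and 351 ± 22.1 CPM (SD, n = 3), and the pericyte gene Rgs5 had 535 ± 30.3 (SD, n = 4) and 422 ± 27.4 CPM (SD, n = 3).

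Genes whose levels were most like those of a member over the 7 mice were named as a description, among genes with a mean of at least 50 CPM. For Ppargc1a, the most abundant member per exon length, they were Rgs12 (Pearson r = 0.98, Spearman rho = 0.96), Atp11a (r = 0.97, rho = 0.93) and Mtm1 (r = 0.97, rho = 0.96), among 5031 candidates of which 17 had r above 0.9. For Nrip1, the member with the fold change farthest from 0, they were Nabp2 (Pearson r = 0.97, Spearman rho = 0.96), Atf7ip (r = 0.95, rho = 0.86) and Exosc4 (r = 0.95, rho = 0.86), among 5032 candidates. The 7 values of each gene come from the same libraries and share their scaling, and these genes were picked from the top of the list.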

How the data were processed

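The authors deposited counts, whole numbers of reads per Ensembl gene for each of 21 libraries, without normalization. The submitters' processing notes name CASAVA and the build mm10, while the aligner, the counting program, the use of strand and the treatment of duplicate reads are not given in the sources used here. RNA was reverse transcribed, amplified by PCR and cut with Tn5, without molecular identifiers, so intervals of counts cover counting error only. The 92 ERCC spike-in rows (34 counts in all) were left out. Of 46517 gene identifiers, 512 were not found in GENCODE vM21 (GRCm38), which gave symbols, coordinates and exon lengths.

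Technical libraries were summed per mouse. Groups follow the genotype in the labels, and the ages come from the description of the RNA-sequenced mice in the study. Genotypes were compared in R 4.3.3 with edgeR 4.0.16 (filterByExpr, TMM, quasi-likelihood F-test, genotype as the only term, Benjamini-Hochberg FDR over 14324 genes). CPM are TMM-normalized, log2 CPM and log2 ratios use a prior count of 2, and SE and intervals of fold changes come from the F statistic and its degrees of freedom. Ratios and shares were compared by two-sided exact permutation tests over 35 divisions of the mice. The scripts were tested on simulated data. Tables were made in Python 3.11.15 with pandas 2.3.3, numpy 2.4.6 and scipy 1.17.1.

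The members and the gene lists (6 pathway lists and 9 marker lists) were chosen with earlier results of these data known, and the lists were described by counts and medians without a test. Named genes were all members and Notch3, from each pathway list the genes with an unadjusted p lower than 0.05 (at most 6, by p) and the most abundant gene, from each marker list the most abundant gene, and for 2 members the 3 genes with the highest Pearson r. Markers at 0, Elovl3, Myh11, Acta2 and Mylk were named by their values. Alternatives were DESeq2 1.42.0, RLE factors, scaling without mitochondrially encoded genes or hepatocyte markers, every gene with at least 1 count, a minimum of 10 counts per mouse, leave-one-out over the mice, k-labelled mice only, limma-voom (limma 3.58.1) on 21 libraries with the mouse as a random effect, with and without the technical number as a block, each technical library alone, no fold threshold and a prior count of 0.5. Leaving out Notch3-/- mice 1 and 2 was chosen after seeing the data.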

Additional observations from a re-analysis of the deposited data

Results flagged for a closer look

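In the control group, the gap between the farthest mouse and its nearest neighbour was compared with the whole range of the group, for the 10 members, the 4 ratios and the mitochondrial share. For Ppard this ratio was 0.958 on the log2 CPM scale, with control mouse 2 at 5.69 CPM and the other control mice at 7.90, 8.00 and 8.02 CPM. For Nrip1 it was 0.903, with control mouse 2 at 19.6 CPM and the other control mice at 39.5, 42.6 and 42.1 CPM. Both lie above the critical value of Dixon's test for 4 samples, and chance flags about 1 in 20 groups. The group of 3 Notch3-/- mice was not tested in this way.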

How the results depend on the processing

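No member was called under any of the 20 alternatives, and 181 of 198 member fold changes kept their sign. The lowest FDR of a member was 0.262. The 1 called gene became 639 in edgeR with every gene that had at least 1 count and 601 (574 higher, 27 lower) with DESeq2, which started from these same 28790 genes in place of 14324, so that filter and tool changed together, 0 in the k-labelled mice, and 48, 39 and 77 in technical library 1, 2 and 3 alone, with the cause not tested. Leaving out 1 mouse gave 1 to 936 called genes, the last without Notch3-/- mouse 3. Limma-voom on 21 libraries called 54 genes, and with the technical number as a replicate block 31. Technical numbers do not pair mice: the mean correlation of deviations between libraries of different mice was -0.035 for the same number and 0.017 for different numbers, and 4 of 21 libraries were closest to their own number. The block called no member. With each mouse left out in turn, log2 fold changes ran from -0.98 to 0.13 for Ppard, from -0.068 to 0.24 for Pparg, from -0.19 to 0.026 for Ppargc1a and from -0.10 to 0.22 for Nrf1. The differences in log2 ratio ran from -0.10 to 0.50 for Ppara to Pparg, from 0.065 to 0.38 for Ppargc1a to Ppargc1b and from -0.19 to 0.074 for Esrra to Esrrg. Other changes of sign, with causes not tested, were -0.038 for Ppara and 0.08 for Ppargc1b without Notch3-/- mice 1 and 2, -0.0037 for Pparg in limma-voom, -0.19 for Pparg and 0.10 for Ppargc1a in technical library 2, 0.10 for Ppargc1a and 0.16 for the ratio of Esrra to Esrrg in the k-labelled mice, -0.14 for Tfam and 0.14 for Nrip1 in technical library 1, and -0.23 for Nrf1 in technical library 3. The difference in mitochondrial share in technical libraries 1, 2 and 3 alone was -0.234, -0.222 and -0.176 percentage points (exact permutation p = 0.543, 0.0286 and 0.20), and it was -0.247 with the mitochondrial ribosomal RNAs added. Ppard did not pass the filter in technical library 1 or 2 alone. The comparison rests on 4 and 3 mice, and the power to find a change of a given size was not tested.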
